A study of Caenorhabditis elegans with 6 samples.

Results

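The insulin-like peptide family of Caenorhabditis elegans was taken as every row of the count table whose WBcel235 symbol starts with ins- and a number, together with daf-28. This rule found 40 of the 46926 genes in the table. Of these, 39 were named by the gene name table and ins-38, annotated as a pseudogene, by its RefSeq locus on the same assembly. Chromosome II held 16 members and chromosome I held 10, with 5 on III, 4 on IV, 3 on V and 2 on X. The FUDR group was 3 libraries of whole wild-type worms labelled L4, the last larval stage, that had been exposed to 50 µM FUDR (5-fluoro-2′-deoxyuridine), a nucleoside analogue that blocks thymidylate synthesis. The OP50 group was 3 libraries of untreated wild-type worms with the same stage label, kept on ordinary plates seeded with the food bacterium Escherichia coli OP50. The comparison asked how FUDR exposure changes transcript levels, here those of the peptides that feed the worm's insulin receptor. The labels are silent on separate cultures, and a p-value here therefore reflects only how far libraries of a group scatter, which may be technical.

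Insulin-like peptides are small secreted hormones made mainly by neurons and the intestine. They bind DAF-2, the worm's insulin and IGF receptor. Agonist peptides activate DAF-2 and, through the phosphoinositide 3-kinase AGE-1 and the AKT kinases, keep the FOXO transcription factor DAF-16 out of the nucleus. Antagonist peptides act against DAF-2. The pathway is known for its control of entry into the dauer larva, a stress-resistant diapause stage, and of larval germline proliferation, metabolism and lifespan.

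Gene counts per library ran from 61312034 to 99234226. All levels below are in CPM, read counts relative to the total of the library, scaled by TMM, a method that sets library sizes so that most genes do not differ. They are shares of the sequenced RNA. All the markers chosen for neurons, intestine, hypodermis, germline, sperm and body wall muscle had counts in both groups. The yolk protein gene vit-2, known as an adult gene, stood at 17700, 13000 and 8990 CPM in FUDR and at 17800, 19300 and 20600 CPM in OP50, although the label says L4. The adult collagen gene col-19 stood at 2830, 2700 and 3390 CPM in FUDR and at 2070, 2380 and 2280 CPM in OP50. By the edgeR test described next, vit-2 was not called (adjusted p = 0.0776) and col-19 rose (0.41, adjusted p = 0.0246).

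Most insulin-like peptide genes whose level differed were higher in FUDR worms. Of 28 members with enough counts to test, 12 rose and 1 fell at an edgeR quasi-likelihood adjusted p under 0.05, the threshold for a call throughout. The genes that rose were ins-3, ins-4, ins-7, ins-10, ins-11, ins-17, ins-18, ins-24, ins-26, ins-27, ins-28 and ins-36, and the gene that fell was daf-28. The 12 rises were 42.9% of the tested members, against 20% of all 17022 tested genes. The single fall was 3.57% of them, against 21% of all tested genes. Members were lowly expressed, with means over all libraries between 0.16 and 9.5 CPM. Of the 7947 tested genes in that range, 25.2% rose and 5.21% fell. The median log2 fold change of the tested members was 0.58, against 0.05 for all tested genes. Scaling by library size alone moved the median of all genes to 0.28 and upper quartile scaling moved it to 0.20. With library size only 17 members were called higher, with upper quartile scaling 16 were, and with either daf-28 was no longer called lower.

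The genes ins-10, ins-11 and ins-36 had at most 11 counts in every OP50 library and passed the count filter through the FUDR libraries. Their direction is therefore tied to the filter. Of the other 25 tested members 9 rose, or 36%, and their median log2 fold change was 0.50. In the members' CPM range 25.2% of tested genes rose, with genes that passed through 1 group not taken out. The 25 still hold ins-14, whose OP50 libraries (12, 14 and 12 counts) would not have passed the filter alone. For 17 tested members FUDR and OP50 libraries held separate ranges. Every FUDR library was above every OP50 library for 15 of the 28 tested members, against 4767 (28%) of all 17022 tested genes. All FUDR libraries were below for 2 of the 28, against 4550 (26.7%) of all tested genes. These shares were not computed for the members' CPM range. The 15 include ins-14 and also ins-10, ins-11 and ins-36, whose direction is tied to the filter. Among the 12 genes that rose, the highest of the 6 libraries was FUDR replicate 3 for 8 genes, FUDR replicate 2 for 3 and FUDR replicate 1 for 1.

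**Figure D1:**
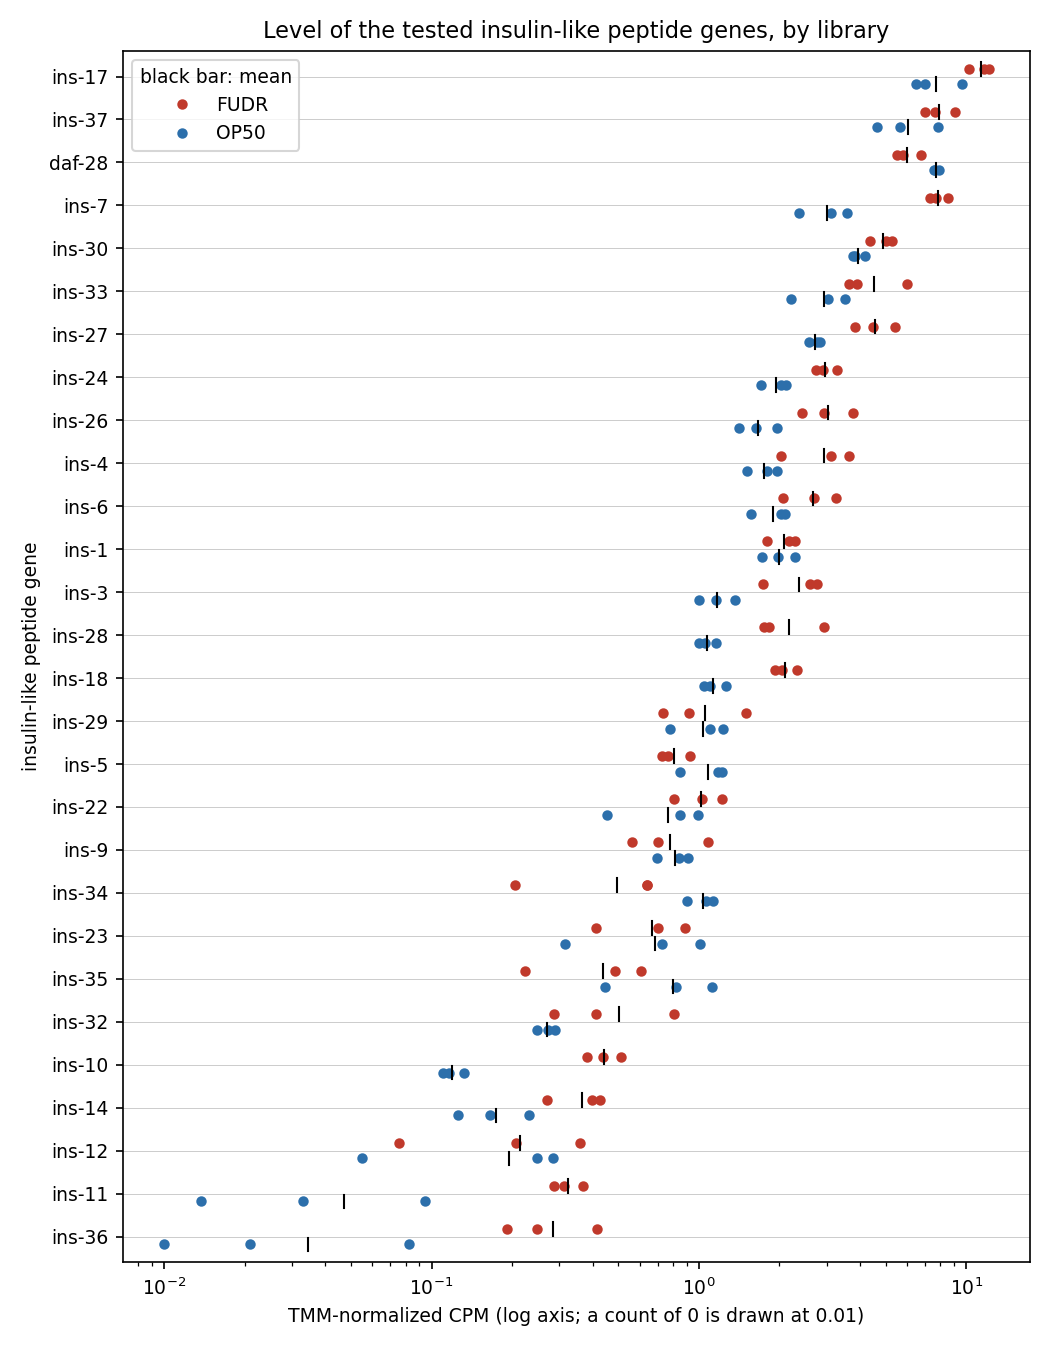
Level of each of the 28 tested insulin-like peptide genes in TMM-normalized CPM on a log axis, with FUDR libraries above OP50 libraries in each row, 1 point per library and a black bar at the mean. The levels run from below 1 CPM for genes such as ins-36 to about 12.1 CPM for ins-17, and the points of ins-7 and ins-18 in FUDR all lie right of those in OP50.

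Summed over the 40 genes, the family reached 74.8, 71.5 and 79.2 CPM in FUDR libraries and 58.9, 52.7 and 50.6 CPM in OP50 libraries. The ranges of the groups did not overlap. The 5 most abundant members, ins-17, ins-37, daf-28, ins-7 and ins-30, made up 53.9%, 50.4% and 47.3% of that sum in FUDR and 55.7%, 51.4% and 49.9% in OP50. Within it, ins-7 took 9.79%, 10.7% and 10.8% in FUDR against 6.08%, 5.93% and 4.67% in OP50. The share of daf-28 was 9.03%, 7.69% and 7.33% in FUDR against 13.4%, 14.3% and 15.1% in OP50.

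Some tissue markers differed between the groups too, where 20% of all tested genes rose and 21% fell. The intestinal counts below lay near those shares. Of 12 germline markers 11 fell, and their summed level was between 2930 and 4040 CPM in FUDR, against 7080 to 7370 CPM in OP50. Of 14 pan-neuronal markers 6 rose and 1 fell, with sums between 515 and 598 CPM in FUDR and between 497 and 548 CPM in OP50. Of 12 intestinal markers 3 rose and 3 fell, with sums of 6530 to 8600 CPM in FUDR and 6900 to 7460 CPM in OP50. Among 10 hypodermal markers 0 rose and 4 fell (638 to 670 CPM in FUDR, 776 to 880 CPM in OP50). Of 10 sperm markers 0 rose and 1 fell (282 to 318 CPM in FUDR, 311 to 361 CPM in OP50), and 0 of 8 body wall muscle markers were called (6660 to 13000 CPM in FUDR, 11600 to 12600 CPM in OP50). The part of these shifts in the insulin-like peptide results was not tested. In whole worms, fewer cells of a type and less RNA per cell cannot be told apart.

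Compared between genes per kilobase of exon, the family's leading transcript in both groups was ins-17, with 20.3 ± 1.74 CPM per kb in FUDR and 13.9 ± 3.03 in OP50 (SD, n = 3 each). In FUDR it was followed by ins-7 at 18.6 ± 1.49, ins-27 at 14.7 ± 2.55, ins-33 at 8.65 ± 2.48, ins-37 at 8.26 ± 1.13 and daf-28 at 7.86 ± 0.848 CPM per kb. In OP50 the genes after ins-17 were daf-28 at 10 ± 0.228, ins-27 at 8.77 ± 0.443, ins-7 at 7.17 ± 1.46, ins-37 at 6.32 ± 1.72 and ins-30 at 5.81 ± 0.315 CPM per kb. Neighbours in these orders often lay within 1 SD of each other's range. In FUDR that held for ins-17 with ins-7, for ins-7 with ins-27, and for ins-33, ins-37 and daf-28, but not for ins-27 with ins-33. In OP50 it held for ins-27 with ins-7 and for ins-7, ins-37 and ins-30, but not for ins-17 with daf-28 or daf-28 with ins-27. The rank of daf-28 was 6 in FUDR and 2 in OP50, and that of ins-7 was 2 in FUDR and 4 in OP50.

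Among the peptides known as agonists or as promoters of growth, 3 of 7 rose, 1 fell and 3 were not called, where 20% of all tested genes rose and 21% fell. With 7 genes these counts say little about the class. The clearest difference was in ins-7, an agonist of intestine and neurons whose gene DAF-16 is known to repress. This gene (WBGene00002090, chromosome IV, 9682011 to 9682845, minus strand, WBcel235) stood at 7.32, 7.68 and 8.54 CPM in FUDR libraries and at 3.59, 3.12 and 2.36 CPM in OP50 libraries. Every FUDR library was above the highest OP50 library, and the log2 fold change of 1.37 ± 0.17 (SE, with an adjusted p of 0.000524 from edgeR) is a 2.59-fold rise. It was called under all 15 alternative settings of filter, scaling, test and libraries, with log2 fold changes between 1.22 and 1.60.

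The genes ins-3 and ins-4 lie next to each other in a group of members on chromosome II. The ins-3 gene (WBGene00002086, 5990099 to 5990768, minus strand) encodes a peptide known to promote larval germline proliferation. It had 1.73, 2.60 and 2.76 CPM in FUDR, against 0.999, 1.16 and 1.36 CPM in OP50, which is 1.02 ± 0.23 as a log2 ratio (SE, with an adjusted p of 0.00787 from edgeR). The FUDR libraries lay above the OP50 libraries, with FUDR replicate 1 the nearest to them. The anti-dauer agonist gene ins-4 (WBGene00002087, 5996366 to 5997008, plus strand) had 3.12, 3.63 and 2.03 CPM in FUDR, against 1.96, 1.79 and 1.51 CPM in OP50. Its groups were separated by a small gap, at 2.03 CPM in FUDR replicate 3 and 1.96 CPM in OP50 replicate 1. The ins-4 log2 fold change was 0.74 ± 0.234 (SE, with an adjusted p of 0.0335 from edgeR). That call was lost without FUDR replicate 1 (adjusted p = 0.0667) or 2 (0.135) and without OP50 replicate 1 (0.0518), 2 (0.0811) or 3 (0.107), and with limma-voom (0.0587).

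The only member that fell was daf-28, the agonist of head sensory neurons that holds back dauer entry. This gene (WBGene00000920, chromosome V, 19815133 to 19816454, plus strand) had 6.75, 5.50 and 5.81 CPM in FUDR and 7.87, 7.54 and 7.63 CPM in OP50. The OP50 libraries were close together and all above the FUDR libraries. The log2 fold change was −0.35 ± 0.122 (SE, with an adjusted p of 0.0444 from edgeR), so the level was 1.28-fold lower in FUDR. The call did not hold with upper quartile scaling (−0.20, adjusted p = 0.201), library size only (−0.13, 0.439), no filter (0.0696), the 5 CPM filter (0.105) or the replicate block (0.0546). It was also lost without FUDR replicate 2 (adjusted p = 0.162) or 3 (0.0739) or without OP50 replicate 1 (0.102), 2 (0.0975) or 3 (0.0981).

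Of the other growth-promoting peptides, 3 were not called. The gene ins-6 (WBGene00002089, chromosome II, 6000436 to 6001009), whose peptide acts with DAF-28 and promotes exit from dauer, had 3.25, 2.07 and 2.70 CPM in FUDR and 1.56, 2.1 and 2.02 CPM in OP50. Its groups overlapped, since FUDR replicate 2 lay below OP50 replicate 2 (0.50 ± 0.214, edgeR adjusted p = 0.0922). It was called with upper quartile scaling (adjusted p = 0.0372) and library size only (0.0197). The gene ins-33 (WBGene00002116, chromosome I, 13637845 to 13639311), also known to promote germline proliferation, had 3.64, 3.89 and 6 CPM in FUDR and 3.05, 2.20 and 3.52 CPM in OP50. The groups of ins-33 did not overlap, but its log2 fold change of 0.62 ± 0.239 had an edgeR adjusted p of 0.0647. It was called with DESeq2 (adjusted p = 0.0373), the replicate block (0.028), upper quartile scaling (0.0349) and library size only (0.0218), and without FUDR replicate 1 (0.0377). The intestinal agonist gene ins-35 (WBGene00002118, chromosome V, 20375536 to 20376302) had 0.223, 0.487 and 0.605 CPM in FUDR and 1.12, 0.446 and 0.824 CPM in OP50. Its libraries overlapped between the groups (−0.86 ± 0.437, edgeR adjusted p = 0.147).

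Both ins-18 and ins-17, peptides known to act against DAF-2 or towards dauer, rose, and ins-1 was not called. The antagonist gene ins-18 (WBGene00002101, chromosome I, 8147427 to 8149651, plus strand) had 1.93, 2.05 and 2.33 CPM in FUDR and 1.10, 1.04 and 1.26 CPM in OP50. The groups were well separated, with a log2 fold change of 0.89 ± 0.184 (SE, with an adjusted p of 0.00534 from edgeR), and the call held in all 14 alternative settings that tested the gene. The gene ins-17 (WBGene00002100, chromosome III, 4476918 to 4477572, minus strand), whose peptide promotes dauer entry, had 12.1, 11.6 and 10.2 CPM in FUDR and 9.64, 7.03 and 6.49 CPM in OP50. All FUDR libraries were higher, although OP50 replicate 1 came near FUDR replicate 3. The log2 fold change was 0.54 ± 0.16 (SE, with an adjusted p of 0.0247 from edgeR). That call was lost without FUDR replicate 1 (adjusted p = 0.0529) or 2 (0.0795) or without OP50 replicate 2 (0.0922) or 3 (0.0894). The antagonist gene ins-1 (WBGene00002084, chromosome IV, 10436701 to 10438412), which acts in salt and temperature learning, had 2.18, 2.28 and 1.79 CPM in FUDR and 2.29, 1.98 and 1.72 CPM in OP50. The ins-1 groups covered nearly the same range (0.06 ± 0.186, edgeR adjusted p = 0.824).

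**Figure D2:**
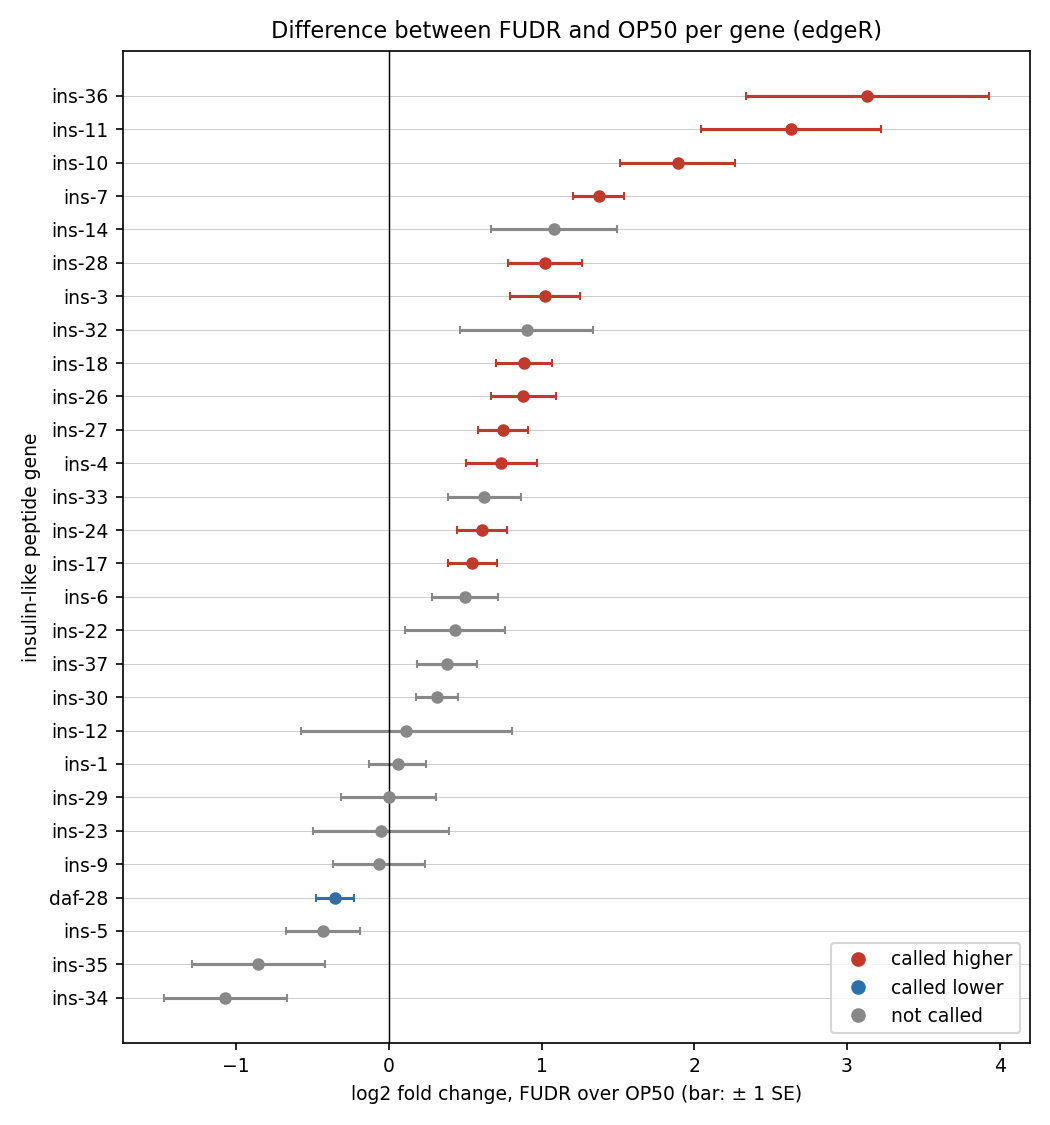
Log2 fold change of FUDR over OP50 for the 28 tested insulin-like peptide genes, with bars of ± 1 SE from the edgeR fit and colours for genes called higher, called lower or not called. The low-count genes ins-36, ins-11 and ins-10 have the largest values and wide bars, ins-7 follows at 1.37 with a narrow bar, and daf-28 at −0.35 is the only called gene left of 0.

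The largest fold changes belonged to ins-36, ins-11 and ins-10, genes with few counts whose direction is tied to the filter. The gene ins-11 (WBGene00002094, chromosome II, 5556731 to 5557173, plus strand) encodes an intestinal peptide known from the avoidance of pathogenic bacteria. It had 18, 34 and 28 counts in FUDR libraries and 9, 2 and 1 counts in OP50 libraries. This is 0.286, 0.368 and 0.314 CPM in FUDR and 0.0946, 0.0331 and 0.0137 CPM in OP50, and every FUDR library was higher. The log2 fold change was 2.64 ± 0.59 (SE, with an adjusted p of 0.00754 from edgeR), and the value was 3.74 without OP50 replicate 1, the OP50 library with the most counts of this gene.

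The gene ins-36 (WBGene00002119, chromosome I, 11212307 to 11215094, minus strand) had 12, 23 and 37 counts in FUDR and 2, 5 and 0 counts in OP50. Its log2 fold change of 3.13 ± 0.794 (SE, with an adjusted p of 0.013 from edgeR) rests on 7 counts over the OP50 libraries, and leaving out OP50 replicate 1 ended the call (adjusted p = 0.0546). Without OP50 replicate 2 the value was 4.44. Part of ins-36 overlaps Y53H1A.7 on the opposite strand, which had at most 3 counts in any FUDR library. The gene ins-10 (WBGene00002093, chromosome V, 14033949 to 14034396, plus strand) had 24, 47 and 39 counts in FUDR and 11, 8 and 8 counts in OP50. All FUDR libraries were higher, with a log2 fold change of 1.89 ± 0.374 (SE, with an adjusted p of 0.00423 from edgeR). A stretch of 74 bases of ins-10 overlaps vps-39 on the opposite strand, a far more abundant transcript that itself fell (−0.42, edgeR adjusted p = 0.0143).

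With a gap of at most 20 kb between neighbours, 26 members fell into 7 groups and 14 stood alone. The largest group held 7 genes within 25.4 kb on chromosome I (14012369 to 14037777). Of its 6 tested members ins-24, ins-26, ins-27 and ins-28 rose and ins-29 and ins-30 were not called. Beside this group and those below, 20% of all tested genes rose, and 25.2% of those in the members' CPM range. With so few genes per group the counts say little about the groups. The gene ins-28 (WBGene00002111) had 1.75, 1.82 and 2.93 CPM in FUDR and 1.05, 1.16 and 1 CPM in OP50 (1.02 ± 0.242, edgeR adjusted p = 0.00976). For ins-26 (WBGene00002109) the levels were 2.42, 2.94 and 3.78 CPM in FUDR and 1.41, 1.95 and 1.64 CPM in OP50 (0.88 ± 0.214, edgeR adjusted p = 0.0109). In both genes FUDR replicate 3 was the highest library and no libraries overlapped.

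The most abundant of that group per kilobase was ins-27 (WBGene00002110), with 3.82, 4.47 and 5.39 CPM in FUDR and 2.57, 2.76 and 2.83 CPM in OP50 (0.75 ± 0.163, edgeR adjusted p = 0.00659). The gene ins-24 (WBGene00002107) had 2.74, 2.90 and 3.27 CPM in FUDR and 2.11, 2.03 and 1.70 CPM in OP50 (0.61 ± 0.164, edgeR adjusted p = 0.0174), a call lost without FUDR replicate 2 (adjusted p = 0.0536) or OP50 replicate 3 (0.0675). Both had all FUDR libraries above all OP50 libraries. Between ins-24 and ins-26 lies ins-30 (WBGene00002113), at 5.01, 4.35 and 5.27 CPM in FUDR and 3.83, 3.77 and 4.16 CPM in OP50. Its libraries did not overlap, yet the log2 fold change of 0.31 ± 0.135 was not called (edgeR adjusted p = 0.0924) except with upper quartile scaling (0.027) and library size only (0.0171). The gene next to ins-28 is ins-29 (WBGene00002112), at 1.5, 0.736 and 0.919 CPM in FUDR and 1.23, 0.777 and 1.10 CPM in OP50. The ins-29 libraries overlapped and its log2 fold change was −0.00 ± 0.309 (edgeR adjusted p = 0.997). The seventh gene, ins-25, was not tested.

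**Figure D3:**
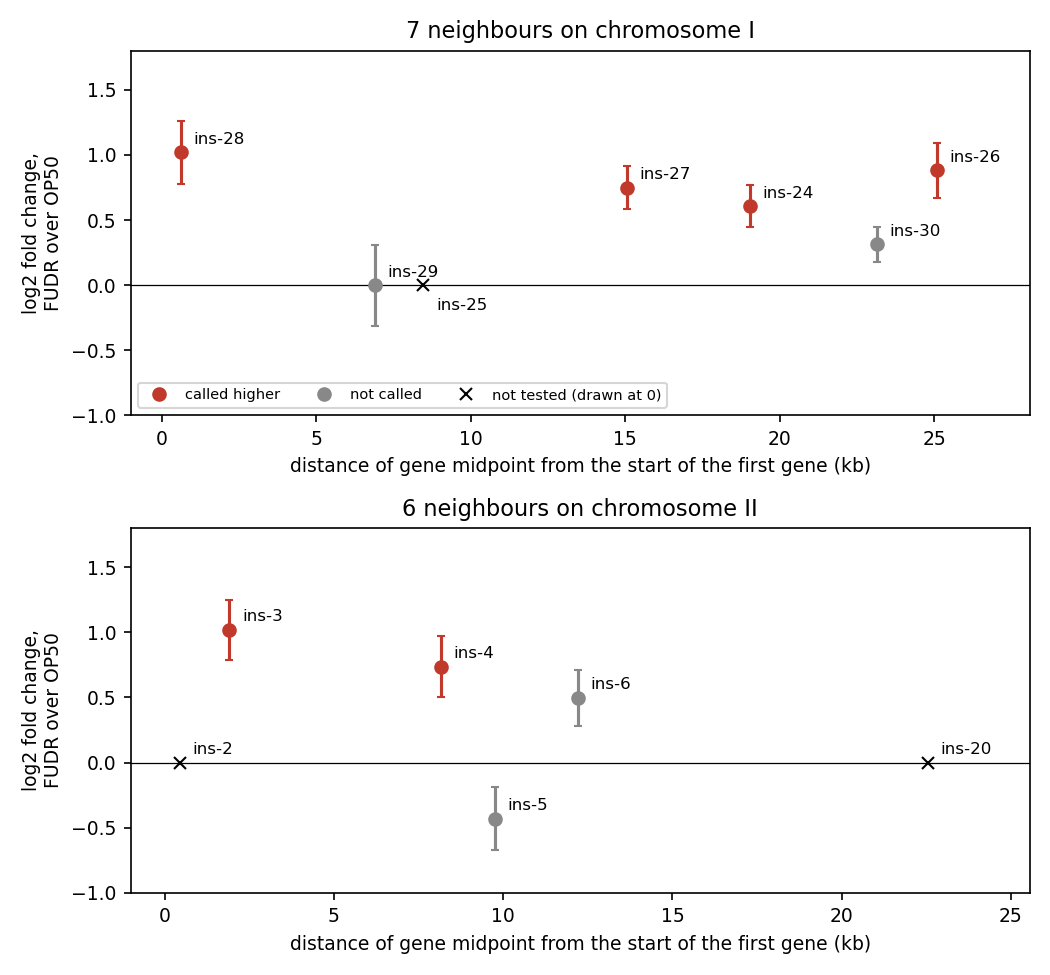
Log2 fold change of FUDR over OP50 with ± 1 SE for the members of both larger groups of neighbours, against the distance of each gene's midpoint from the start of the first gene in kb, with crosses at 0 for genes that were not tested. On chromosome I the called ins-28 at 1.02 is followed by ins-29 near 0, and on chromosome II ins-5 at −0.43 lies between ins-4 at 0.74 and ins-6 at 0.50.

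The second group held 6 genes within 22.8 kb on chromosome II (5988524 to 6011321), in the order ins-2, ins-3, ins-4, ins-5, ins-6 and ins-20. Of its 4 tested members ins-3 and ins-4 rose and ins-5 and ins-6 were not called. The gene ins-5 (WBGene00002088), between ins-4 and ins-6, had 0.923, 0.769 and 0.728 CPM in FUDR and 1.18, 1.22 and 0.852 CPM in OP50. Its groups overlapped through FUDR replicate 1 and OP50 replicate 3 (−0.43 ± 0.244, edgeR adjusted p = 0.188). In a group on chromosome II (5530677 to 5557173) that holds ins-11, ins-12, ins-13 and ins-38, 3 of 5 other tested genes also rose. They include acdh-2, which overlaps ins-13 by 87 bases (2.66, edgeR adjusted p = 0.0378) and is named here after its values were seen. Over all tested genes 20% rose. On chromosome IV, ins-7 lies next to ins-8, which had 3, 7 and 1 counts in FUDR and 0, 0 and 2 counts in OP50 and was not tested. On chromosome III, ins-21, ins-22 and ins-23 lie within 4.95 kb, and neither of the tested pair was called. The gene ins-22 (WBGene00002105), whose peptide is a common cargo for imaging dense-core vesicles, had 1.03, 1.22 and 0.807 CPM in FUDR and 0.452, 0.992 and 0.852 CPM in OP50 (0.43 ± 0.33, edgeR adjusted p = 0.322). The gene ins-23 had 0.700, 0.411 and 0.885 CPM in FUDR and 1.01, 0.727 and 0.316 CPM in OP50 (−0.05 ± 0.445, edgeR adjusted p = 0.934).

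Among the remaining members that were tested and not called, ins-34 (WBGene00002117, chromosome IV, 14106574 to 14107737) had the lowest log2 fold change. It had 0.637, 0.206 and 0.639 CPM in FUDR and 0.904, 1.06 and 1.13 CPM in OP50. All FUDR libraries were below all OP50 libraries, but the value of −1.07 ± 0.401 had an edgeR adjusted p of 0.06. It was called with DESeq2 (adjusted p = 0.0253), limma-voom (0.0384) and no filter (0.0402), and without FUDR replicate 1 (0.0459) or 3 (0.0424). Its last 82 bases overlap nkcc-1 on the opposite strand, which fell (−0.57, edgeR adjusted p = 0.00861). The gene ins-14 (WBGene00002097, chromosome II) had 0.398, 0.271 and 0.426 CPM in FUDR and 0.126, 0.231 and 0.165 CPM in OP50. Its groups did not overlap (1.08 ± 0.413, edgeR adjusted p = 0.0639), and it was called with upper quartile scaling (0.0392) and library size only (0.032).

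The abundant ins-37 (WBGene00002120, chromosome II, 13835101 to 13836107) had 9.09, 6.98 and 7.60 CPM in FUDR and 7.84, 5.64 and 4.63 CPM in OP50. OP50 replicate 1 lay inside the FUDR range, and the gene was not called (0.38 ± 0.198, edgeR adjusted p = 0.155) except with library size only (adjusted p = 0.0402) or once OP50 replicate 1 was left out (0.62, adjusted p = 0.0282). The other 3 were ins-32 (0.90 ± 0.436, edgeR adjusted p = 0.128), ins-12 (0.11 ± 0.692, 0.91) and ins-9 (−0.06 ± 0.3, 0.883). In ins-32 the FUDR libraries ran from 0.286 to 0.807 CPM and the OP50 libraries from 0.248 to 0.289 CPM. In ins-12 the FUDR libraries ran from 0.0758 to 0.359 CPM and the OP50 libraries from 0.055 to 0.284 CPM. In ins-9 the FUDR libraries ran from 0.563 to 1.08 CPM and the OP50 libraries from 0.694 to 0.907 CPM. All 3 pairs of ranges overlapped. The ins-37 gene shares 171 bases with F08G2.9 on the same strand and 192 bases with R05D7.8 on the opposite strand. Both had 0 counts in every library, and ins-37 reads in these stretches may have gone uncounted, which was not tested.

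Too few counts for a test were found for 12 members, namely ins-2, ins-8, ins-13, ins-15, ins-16, ins-19, ins-20, ins-21, ins-25, ins-31, ins-38 and ins-39. Together they had 115 counts over the FUDR libraries and 84 over the OP50 libraries, and 9 of them never passed 10 counts in a library. The exceptions were ins-25, with 0, 9 and 11 counts in FUDR and 8, 19 and 7 in OP50, ins-31, with 15, 19 and 1 in FUDR and 5, 8 and 1 in OP50, and ins-19, with 1, 1 and 1 in FUDR and 11, 2 and 1 in OP50. The ins-39 gene had 0 counts in every FUDR library and 3, 0 and 0 in OP50, and ins-13 had 0, 0 and 5 in FUDR and 0 in every OP50 library. At this depth 3 counts correspond to between 0.0315 and 0.0496 CPM, and most of the 12 lay near this floor. Fitted without a count filter, 0 of the 12 were called by edgeR, and 0 had an unadjusted p under 0.05. DESeq2 and limma-voom were not run on them.

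Genes between the receptor and DAF-16 mostly fell or were not called. Of 23 tested genes of that list 2 rose and 10 fell, against 20% and 21% of all tested genes, with a median log2 fold change of −0.36 beside 0.05 for all genes. Most genes of this list stood above 9.5 CPM, the top of the peptides' range. The share that fell differed with level, at 5.21% of tested genes in the peptides' range. That range held 7947 of the 17022 tested genes, but 414 of the 3582 that fell and 1999 of the 3397 that rose. Outside it the share that fell was therefore above 21%, and the share that rose was below 20%. Shares at the level of this list and of the lists below were not computed. Without FUDR replicate 1 the number of list genes that fell was 16, and with library size only it was 5. The fall in age-1, the catalytic subunit of phosphoinositide 3-kinase, was the largest, with 31.1, 28.6 and 23.8 CPM in FUDR against 71.2, 65.0 and 63.9 CPM in OP50 (−1.26 ± 0.109, edgeR adjusted p = 0.000137). Its groups were far apart. The ubiquitin ligase gene rle-1 had 106, 91.6 and 75.5 CPM in FUDR against 165, 165 and 157 CPM in OP50 (−0.84 ± 0.121, edgeR adjusted p = 0.000974). The DAF-16 regulator gene hcf-1 had 150, 156 and 139 CPM in FUDR against 205, 205 and 210 CPM in OP50 (−0.48 ± 0.0834, edgeR adjusted p = 0.00231). No libraries of either gene overlapped between the groups.

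Of the kinase genes akt-1 fell (−0.43 ± 0.0926, edgeR adjusted p = 0.00628), while akt-2 (0.47 ± 0.13, 0.019) and sgk-1 (0.37 ± 0.113, 0.0289) rose. The akt-1 gene had 96.7, 95.8 and 80.7 CPM in FUDR and 126, 123 and 119 CPM in OP50. The akt-1 call was lost with library size only (adjusted p = 0.073). Neither rise was called without FUDR replicate 2 (adjusted p = 0.0716 for akt-2 and 0.0966 for sgk-1), OP50 replicate 1 (0.0634 and 0.0861) or OP50 replicate 2 (0.0768 and 0.122), and sgk-1 was not called without FUDR replicate 1 (0.0584) or with the replicate block (0.0507). The receptor gene daf-2 had 106, 84.1 and 55.2 CPM in FUDR and 117, 112 and 103 CPM in OP50, with FUDR replicate 3 lowest (−0.44 ± 0.204, edgeR adjusted p = 0.121). It was called without FUDR replicate 1 (−0.67, adjusted p = 0.0156) and with the replicate block (−0.48, adjusted p = 0.0357). The gene daf-16 had 146, 123 and 112 CPM in FUDR and 155, 140 and 144 CPM in OP50 (−0.21 ± 0.109, edgeR adjusted p = 0.151) and was called without FUDR replicate 1 (−0.33, adjusted p = 0.0199). The germline marker values given above stand beside this list too, and their part in it was not tested.

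**Figure D4:**
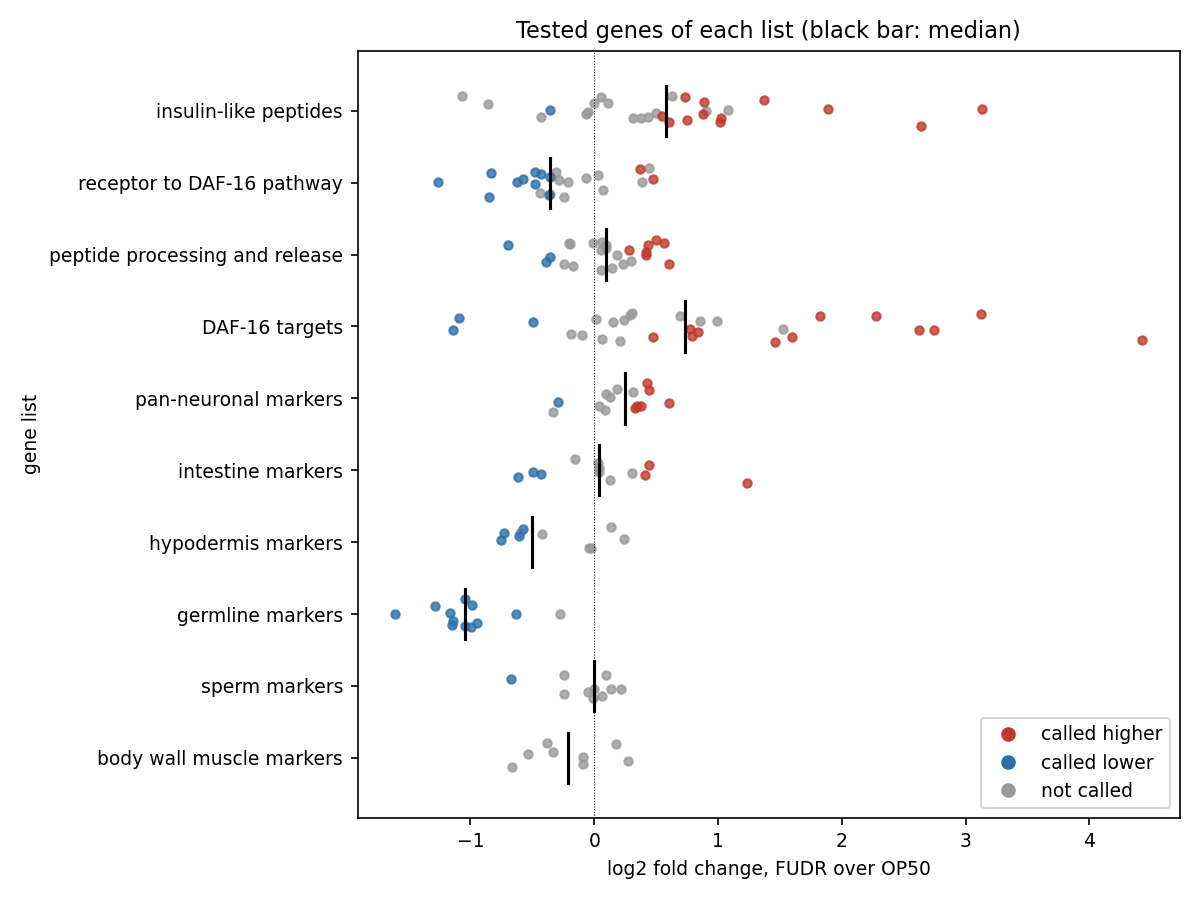
Log2 fold change of FUDR over OP50 for each tested gene of the insulin-like peptide family, of 3 related gene lists and of 6 tissue marker lists, with a black bar at each list's median and colours for calls. The insulin-like peptides have a median of 0.58, the genes from receptor to DAF-16 one of −0.36 and the germline markers one of −1.04.

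Genes that process and release peptides moved in both directions. Of 24 tested 7 rose and 3 fell, with a median of 0.10 beside 0.05 for all genes. Over all tested genes 20% rose and 21% fell. Most genes of this list also stood above 9.5 CPM, and shares at that level were not computed. The smallest p among the rises belonged to sbt-1, whose product is the chaperone of the proprotein convertase EGL-3, with 59.2, 62.4 and 66.3 CPM in FUDR against 46.3, 40.0 and 40.8 CPM in OP50 (0.56 ± 0.0881, edgeR adjusted p = 0.00141). Next came pgal-1, an enzyme gene of peptide amidation, with 67.6, 71.3 and 70.3 CPM in FUDR against 53.2, 48.5 and 46.1 CPM in OP50 (0.50 ± 0.0814, edgeR adjusted p = 0.00166). Both had separate groups. So did ric-19, with 7.02, 6.95 and 7.21 CPM in FUDR against 4, 4.88 and 5.11 CPM in OP50 (0.60 ± 0.133, edgeR adjusted p = 0.00705). This gene also stands among the pan-neuronal markers, as do egl-3 and ida-1 of this list. The other rises were pghm-1 (0.42, edgeR adjusted p = 0.00881), kpc-1 (0.44, 0.00962), snt-3 (0.42, 0.0222) and asna-1 (0.28, 0.0499). The metalloprotease gene gon-1 fell, with 58.2, 48.5 and 42.1 CPM in FUDR against 89.0, 76.0 and 76.3 CPM in OP50 (−0.70 ± 0.126, edgeR adjusted p = 0.00274). The other genes that fell were the dense-core vesicle gene hid-1 (−0.39) and the protein kinase C gene pkc-1 (−0.35). The hid-1 call was lost with library size only (adjusted p = 0.174). The pkc-1 call was lost without FUDR replicate 2 (adjusted p = 0.0637) and without OP50 replicate 1 (0.0727) or 3 (0.0574), and with upper quartile scaling (0.104), library size only (0.291) and the 5 CPM filter (0.0601).

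The genes egl-3, egl-21 and unc-31 of that list were not called. The convertase gene egl-3 averaged 128 ± 23.3 CPM in FUDR and 119 ± 18.1 CPM in OP50 (SD, n = 3 each), with overlapping libraries (0.10 ± 0.152, edgeR adjusted p = 0.641). The carboxypeptidase gene egl-21 had 105, 97.2 and 91.0 CPM in FUDR and 95.5, 84.2 and 86.3 CPM in OP50 (0.14 ± 0.089, edgeR adjusted p = 0.236). The vesicle release gene unc-31 had 8.45, 8.50 and 7.74 CPM in FUDR and 9.13, 7.32 and 8.33 CPM in OP50 (−0.01 ± 0.12, edgeR adjusted p = 0.971). The groups of egl-21 and unc-31 overlapped as well. The egl-21 gene was called higher with upper quartile scaling (adjusted p = 0.0212), library size only (0.00885) and the 5 CPM filter (0.0342). The number of rises in the list was 4 without OP50 replicate 2, 13 with library size only and 11 with upper quartile scaling.

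Of 28 tested genes known to respond to DAF-16, 12 rose and 3 fell, against 20% and 21% of all tested genes, with a median of 0.73 beside 0.05 for all genes. The symbol hsp-16.1 names a pair of closely similar genes in the table, of which 1 was tested, and reads may be split between them. The tested gene, among those that rose, had 10, 27 and 37 counts in FUDR and 10, 3 and 6 in OP50. It passed the count filter through the FUDR libraries, so its direction is tied to the filter. The smallest p belonged to dod-22, with 35.8, 39.6 and 49.6 CPM in FUDR against 7.57, 7.26 and 5.43 CPM in OP50 (2.62 ± 0.166, edgeR adjusted p = 3.9e-05). The palmitoyl-CoA desaturase gene fat-5 had 13, 9.43 and 9.49 CPM in FUDR against 1.51, 1.21 and 2.01 CPM in OP50 (2.75 ± 0.215, edgeR adjusted p = 9.2e-05). The groups of both genes were far apart. The small heat shock protein gene hsp-16.2 had 2.64, 3.26 and 2.77 CPM in FUDR against 0.305, 0.529 and 0.179 CPM in OP50 (3.12 ± 0.328, edgeR adjusted p = 0.000261). The gene dod-3 had 31.2, 28.3 and 9.97 CPM in FUDR against 1.02, 1.24 and 0.976 CPM in OP50 (4.43 ± 0.44, edgeR adjusted p = 0.000313), with FUDR replicate 3 well below the other FUDR libraries. The list mixes genes that DAF-16 is known to activate, such as dod-3, with genes known to be higher when DAF-16 is missing, such as dod-17 (2.27), dod-19 (1.60), dod-22 and dod-24 (0.84). The count was not split by kind. The genes that fell were dao-3 (−0.49), sip-1 (−1.09) and lea-1 (−1.14), and dao-3 was not called with library size only (adjusted p = 0.0558). The lea-1 call was lost without FUDR replicate 1 (adjusted p = 0.153), 2 (0.0978) or 3 (0.28), and with upper quartile scaling (0.0613), library size only (0.142), no filter (0.2), the 5 CPM filter (0.0569) and DESeq2 (0.0635). In lea-1, OP50 replicate 1 stood at 1020 CPM against 411 and 350 CPM in the other OP50 libraries, and without it the value was −0.51 (adjusted p = 0.0392). The superoxide dismutase gene sod-3, a widely used DAF-16 reporter, had 2.72, 2.46 and 4.51 CPM in FUDR and 2.79, 3.72 and 1.94 CPM in OP50, with overlapping groups (0.20 ± 0.292, edgeR adjusted p = 0.605).

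**Figure D5:**
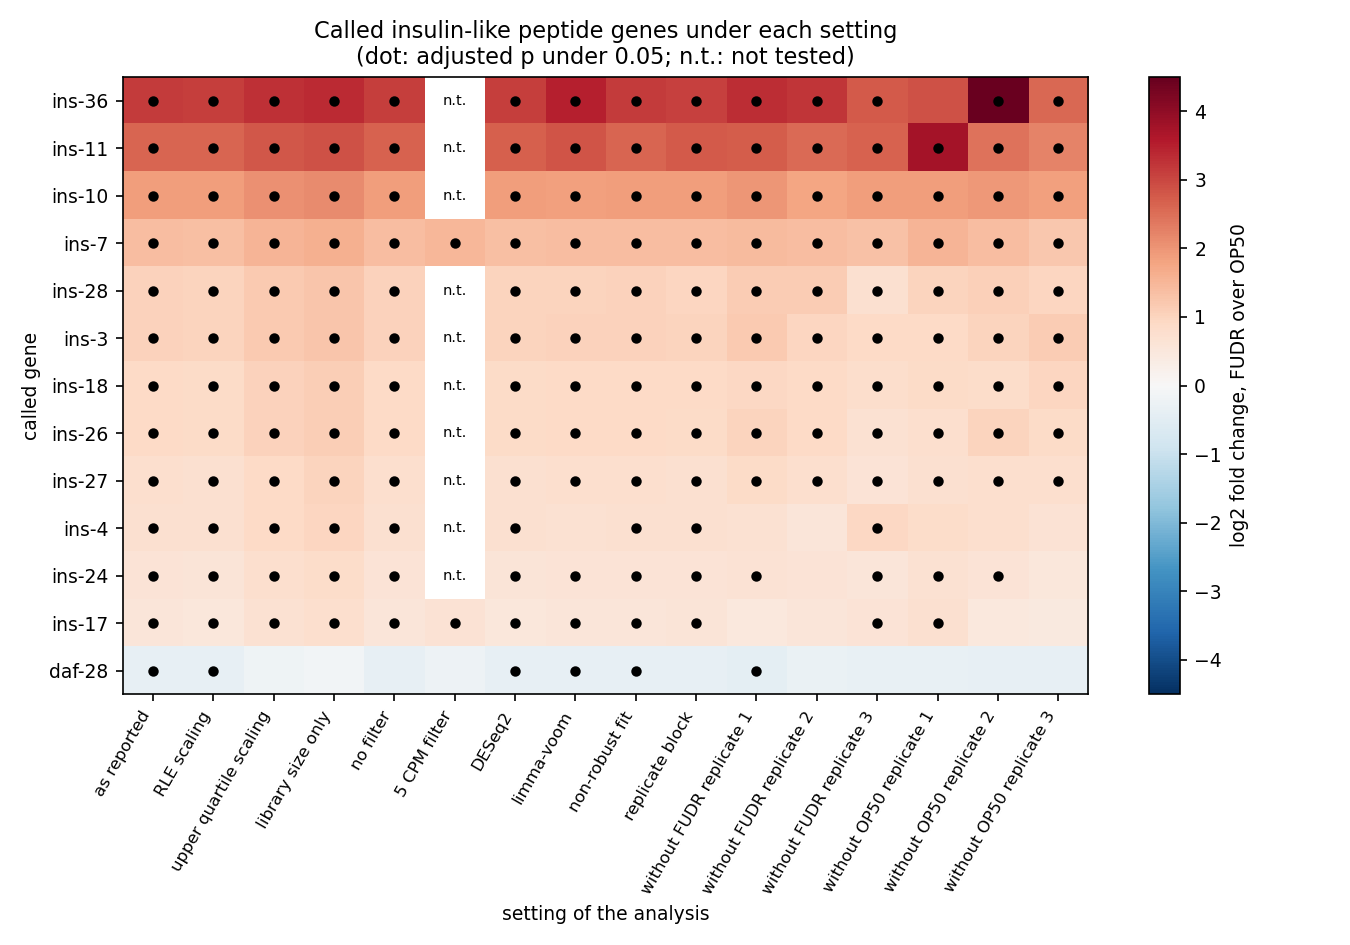
Log2 fold change of FUDR over OP50 (colour) of the 13 called insulin-like peptide genes, in rows, under each setting of the analysis, in columns, with a dot where the adjusted p is under 0.05 and n.t. where the gene was not tested. The genes ins-7, ins-18, ins-3, ins-10, ins-11, ins-26, ins-27 and ins-28 carry a dot in every column that tested them, and ins-4, ins-17 and daf-28 lose it in several. The genes ins-10, ins-11 and ins-36 passed the count filter through the FUDR libraries, which ties their direction to the filter.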

How the data were processed

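RNA of 3 FUDR and 3 OP50 libraries was sequenced, and the authors deposited raw counts per gene. Per the submitters' processing notes STAR, HTSeq and the WBcel235 assembly were used, with versions and strand setting not given in the sources used here, so overlapping genes may not be told apart. HTSeq summary lines (4.55% to 5.33% of counts) were left out. Positions and exon lengths came from the Ensembl annotation of WBcel235. Genes passing filterByExpr (minimum count 10, minimum total 15) were tested in R 4.3.3 with edgeR 4.0.16 (TMM scaling, robust quasi-likelihood F test, Benjamini-Hochberg adjustment over all tested genes, threshold 0.05), after the procedure was tested on simulated data. The SE is the log2 fold change divided by the square root of F. Libraries of a group differed by more than counting noise (smallest chi-square per degree of freedom 18.7). The floor of 3 counts covers counting error only.

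Values per library are given for every called member and for the better known peptides daf-28, ins-1, ins-3, ins-4, ins-6, ins-7, ins-11, ins-17, ins-18, ins-22, ins-33 and ins-35. For the other lists they are given for up to 4 called genes with the smallest p and for daf-2, age-1, akt-1, daf-16, egl-3, egl-21, unc-31 and sod-3; 1 further gene of that rule is not reported here. Other genes with values were named after those were seen. The members and lists were chosen with earlier results of these data known. Alternatives were RLE, upper quartile or no scaling, no filter, at least 5 CPM in 3 libraries, DESeq2 1.42.0, limma-voom (limma 3.58.1), a block for the replicate number, a non-robust fit, and each library left out.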

Additional observations from a re-analysis of the deposited data

How the results depend on the processing

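The rises were 9 to 12 with any 1 library left out and 2 with the 5 CPM filter, which tested 4 members; falls were 0 to 2 with a library left out, 2 with DESeq2 and limma-voom, and 0 with upper quartile scaling, library size only, the 5 CPM filter and the replicate block. For the genes from receptor to DAF-16, rises were 4 with upper quartile scaling, library size only and the 5 CPM filter, 1 with the block and 0 to 3 with a library left out, and falls were 5 with library size only and 9 to 16 with a library left out. For peptide processing, rises were 11 with upper quartile scaling, 13 with library size only and 4 to 7 with a library left out, and falls 1 with library size only and 2 to 4. For DAF-16 targets, rises were 10 to 14 and falls 2 to 3 with a library left out, and 1 with library size only. Over all genes, library size only called 5814 higher and 1931 lower, and leaving out a library 2327 to 3400 and 2679 to 3834. The FUDR mean of the family's sum was 79.3 CPM with upper quartile scaling and 81.5 CPM with library size only. Apart from the construction of each alternative (fewer genes, fewer libraries, another scale), the cause was not tested.

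Log2 fold changes near 0 changed sign, and none of the values given here was called. With upper quartile scaling ins-9 was 0.095, ins-23 0.098, ins-29 0.15 and unc-31 0.14. With library size only ins-9 was 0.17, ins-23 0.17, ins-29 0.21, daf-16 0.0075 and unc-31 0.22. With the 5 CPM filter unc-31 was 0.10. Leaving out 1 library gave −0.046 to 0.17 for ins-1, −0.38 to 0.14 for ins-9, −0.54 to 0.54 for ins-12, −0.40 to 0.36 for ins-23, −0.34 to 0.21 for ins-29, −0.034 to 0.23 for egl-3, −0.092 to 0.07 for unc-31 and −0.12 to 0.44 for sod-3.

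Replicate numbers were shared by the groups, but same-numbered libraries deviated together with correlations of 0.139, −0.0374 and 0.112, so the numbers were not taken as pairs. FUDR replicates 1 and 3 correlated best with the OP50 library of their own number, and FUDR replicate 2 with OP50 replicate 1. With the replicate block 13 members were called higher and ins-23 was 0.008. Depth limits the 12 members that were not tested.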
